A study of Mus musculus with 2 samples.

Results

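The cells described here are the late neutrophil cells of a mouse bone marrow culture, chosen by 2 values of each cell. Barcodes with 500 or more genes were kept where mitochondrially encoded genes gave no more than 10% of the unique molecular identifiers (UMIs, counts of distinct captured RNA molecules). It was a late cell if S100a8 and S100a9 together made up at least 1% of its UMIs and Ltf at least 0.05%. This gave 437 of 8916 kept cells, 261 of 6004 in the Cxxc5 knockdown library and 176 of 2912 in the control library. They are set beside the S100a8-high, Ltf-low cells, which passed the S100 minimum only (1048 knockdown and 634 control cells).

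Both groups began as bone marrow of C57BL/6 mice enriched for stem and progenitor cells and infected with a retrovirus carrying GFP. The knockdown virus carried an shRNA against Cxxc5, which encodes a CXXC zinc finger protein, and the control virus an shRNA with no target in the mouse. GFP-positive LSK cells (lineage-negative, Sca-1-positive and Kit-positive, the fraction that holds blood stem cells and early progenitors) were sorted and kept for 3 days in medium with 20% serum, GM-CSF (10 ng/ml) and SCF (10 ng/ml). Each group was a pool of 5 samples sequenced as 1 library of 10x Genomics 3' RNA counts, so no difference between the groups has a replicate check and no p-value is given. Mouse age and the number of hairpins per group are not given in the sources used here, nor whether the pools shared mice. Intervals, all at 95%, hold counting error alone and leave out the spread between cells, mice or cultures.

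Neutrophils make their granule proteins in waves as they mature. Promyelocytes fill primary (azurophil) granules with myeloperoxidase and serine proteases, and the later myelocytes and metamyelocytes make the secondary (specific) granule proteins lactoferrin, cathelicidin and lipocalin-2 while the primary granule genes are switched off. S100a8 and S100a9, which form calprotectin, accumulate over the same period, and the transcription factor C/EBP epsilon is required for the secondary granule genes. In mice, Ly6g marks neutrophils at the surface.

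The stretches before the starts of Ltf (lactoferrin), which the rule used, and Ngp (neutrophilic granule protein) are shown as examples of secondary granule genes whose upstream sequence holds 8 letters of the C/EBP type. The sequences are RefSeq's, on GRCm38.p6, 5' to 3' in the direction of the gene, and end before the first annotated start. Capitals mark TTGCNNAA or its complement TTNNGCAA. Ltf itself lies at chr9:111019271-111042767, Camp at chr9:109847379-109849617, Lcn2 at chr2:32384633-32388252 and Ly6g at chr15:75155240-75159126. For Ltf the stretch is chr9:111019042-111019270 on the plus strand, and for Ngp chr9:110419558-110419746 on the plus strand.
Ltf: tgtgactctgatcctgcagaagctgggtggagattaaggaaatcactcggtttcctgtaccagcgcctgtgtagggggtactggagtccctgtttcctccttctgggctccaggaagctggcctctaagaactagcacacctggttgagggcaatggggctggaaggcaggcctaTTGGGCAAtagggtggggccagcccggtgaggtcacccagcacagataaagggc
Ngp: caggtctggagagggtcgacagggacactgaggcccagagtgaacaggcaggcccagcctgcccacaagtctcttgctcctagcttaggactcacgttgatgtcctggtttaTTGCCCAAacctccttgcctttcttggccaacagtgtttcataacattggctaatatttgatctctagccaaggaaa
Over windows of 300 bases, 250 before and 50 after each RefSeq start, searched on both strands, 5 of the 13 secondary granule genes with a promoter in the table held these letters (Ltf, Ngp, Lcn2, Mmp8 and Orm2, the last with 0.519 CPM in knockdown and 0 in control late cells). The share among all 27025 promoters was 10.8%. Camp, which encodes cathelicidin, held none in its window. The letters GAGGAAG, of the PU.1 type, stood in 4 of the 13 secondary granule windows and in 7 of 12 primary granule windows (Mpo, Elane, Prtn3, Ctsg, Bpi, Ctsc and Cd63), against 13.5% of all promoters. For Lcn2 (lipocalin-2) the RefSeq window lies inside the longer GENCODE span of the gene. A match describes the letters and does not show binding.

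The Ltf minimum alone decided who was a late cell. No cell with Ltf at or above 0.05% had an S100 share under 2% in either library. Just inside the minimum, 45 knockdown and 44 control cells had Ltf between 0.05% and 0.1%, and just outside it 39 knockdown and 27 control cells had between 0.025% and 0.05%. The fewest Ltf UMIs in a late cell were 3 in each library, and 33 knockdown and 13 control late cells had 3 to 5. Of the Ltf-low cells, 914 knockdown and 529 control cells held no Ltf UMI at all.

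**Figure D1:**
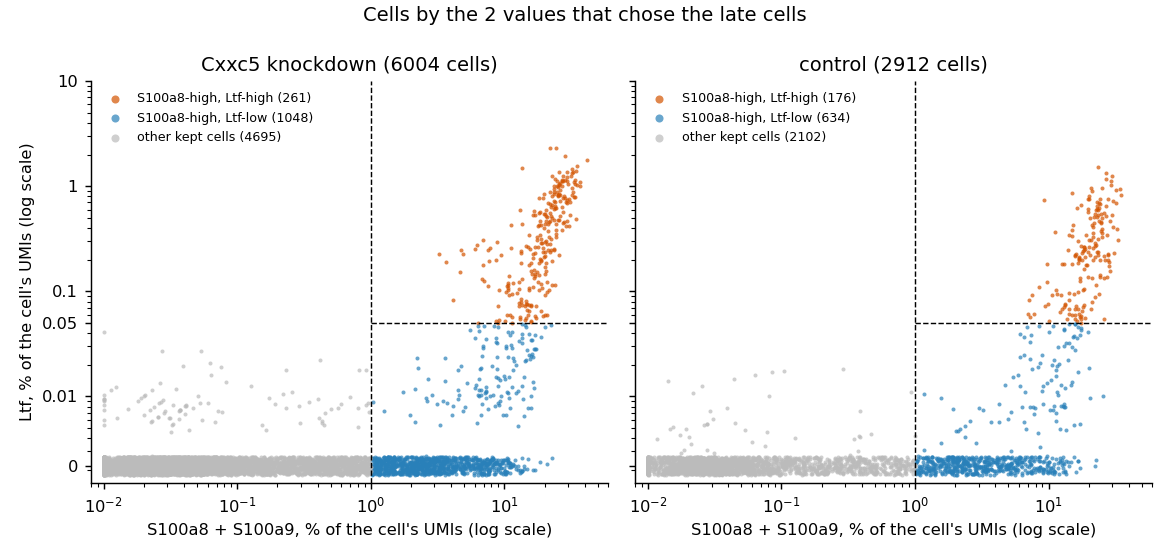
Each point is a kept cell, by its S100a8 plus S100a9 share (horizontal, log scale, values under 0.01% drawn at 0.01%) and its Ltf share (vertical, log scale, cells without Ltf in the band at 0), in the knockdown (left) and control (right) libraries. Dashed lines are the minimums of 1% and 0.05%, and the 261 knockdown and 176 control late cells lie at the upper right with no cell to their left.

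The label was checked against 4 neutrophil markers, of which Ltf also served the rule. All 4 were detected in both libraries. Camp had a UMI in 260 of 261 knockdown and in 176 of 176 control late cells, and Lcn2 in every late cell. Camp also had a UMI in 571 of 1048 knockdown and in 398 of 634 control Ltf-low cells. Lcn2 had UMIs in 929 knockdown and 602 control Ltf-low cells. Detection of Lcn2 thus did little to set late cells apart from Ltf-low cells. Ly6g had a UMI in 97 knockdown late cells (37.2%, 31.3 to 43.3%) and in 98 control late cells (55.7%, 48.0 to 63.2%). With each cell thinned to 3000 UMIs, which left out 11 knockdown cells, the Ly6g shares were 21.2% and 28.4%. The same thinned shares were 1.76% and 3.79% in Ltf-low cells and 0.219% and 0.143% in all other kept cells. All 4 markers together were seen in 97 knockdown and 98 control late cells, and 3 or more in all but 1 knockdown cell. Every late cell held Ltf by the rule, and the 97 and 98 cells repeat the Ly6g counts, so these counts add little to the check. In Ltf-low cells all 4 were seen in 14 knockdown and 25 control cells, and exactly 3 in 131 and 100 cells. Cxcr2, a chemokine receptor of mature neutrophils, had a UMI in only 9 knockdown and 18 control late cells (3.45% and 10.2%). In late cells thinned to 3000 UMIs the Cxcr2 shares were 2.4% and 3.98%.

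Markers of most other lineages were low in the late cells. All 7 erythroid markers had 0 UMIs in both libraries. Summed levels, in UMIs per 1e6 (CPM), were 19.2 in knockdown and 18.5 in control late cells for 12 monocyte-macrophage markers, 28.5 and 25.5 for 8 mast cell markers, 19.2 and 7.601 for 6 basophil markers, and 14.5 and 35.8 for 6 eosinophil markers. The 6 megakaryocyte, 7 lymphoid and 8 stem cell markers summed to at most 9.34 CPM in either library. The monocyte genes Fn1, Ly86 and C1qa and the mast cell proteases Cma1, Mcpt2, Tpsb2 and Mcpt4 were at 0 in both. The 8 dendritic cell markers summed to 61.7 CPM in knockdown and 4.34 CPM in control late cells, and the part of such cells in the ratios below was not tested. In all other kept cells they summed to 93.7 and 280 CPM. The eosinophil markers were the only list of these that summed lower in all other kept cells, at 6.46 CPM in knockdown and 14.0 CPM in control cells. Progenitor markers were the exception, since 8 granulocyte-monocyte progenitor markers, 7 of which are primary granule genes described below, summed to 8757 CPM in knockdown and 5637 CPM in control late cells.

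Late cells held less RNA than the rest. Their median was 6980 UMIs and 1675 genes in the knockdown and 9908 UMIs and 1942 genes in the control library, which is 0.659 and 0.576 of the median of all kept cells of each library. The Ltf-low cells had medians of 10033.5 and 16543 UMIs. The median mitochondrial share of late cells was 2.89% and 2.93%. The whole libraries held 62910229 UMIs over 6015 barcodes in the knockdown and 49333454 UMIs over 2925 barcodes in the control, and 26 barcode sequences occurred in both, among them that of 1 control late cell and of no knockdown late cell. Free RNA was read from mast cell and basophil protease-rich cells, 32 knockdown and 23 control cells with medians of 4485.5 and 10800 UMIs. These held Ltf at 5.27 CPM in 1 knockdown cell and at 0 in control cells, and no Ly6g UMI.

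Cxxc5 could not be checked within the late cells. It had 0 UMIs in 261 knockdown and in 176 control late cells, which limits the share of cells with a Cxxc5 UMI, not of cells that express it, to 1.15% and 1.70% (3 cells over the number of cells) or to 1.40% and 2.07% (Clopper-Pearson). In Ltf-low cells 2 of 1048 knockdown and 10 of 634 control cells held a Cxxc5 UMI. In all other kept cells 71 of 4695 knockdown cells (1.51%) and 358 of 2102 control cells did, with 1.41 CPM against 12.2 CPM, a log2 ratio of -3.12.

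Late cells made up a smaller share of the knockdown library. They were 4.35% of its kept cells (3.85 to 4.89%, Clopper-Pearson), against 6.04% in the control library (5.21 to 6.97%), a log2 ratio of -0.48 with a counting interval of -0.76 to -0.19. Ltf-low cells were 17.5% (16.5 to 18.4%) of knockdown and 21.8% (20.3 to 23.3%) of control cells, so both neutrophil stages took smaller shares. The late share differed in the same direction under each of the 10 other cell filters and rules tried. Those with an S100 minimum of 0.5% or 3% chose the same 261 knockdown and 176 control cells, so they add no check. The libraries differed in depth, and when every cell was thinned to 3000 UMIs first, the late shares were 4.21% and 5.80%. Whether such a difference would recur between separate cultures cannot be read from 1 library per group.

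Compared with Ltf-low cells, late cells carried more secondary granule and fewer primary granule transcripts, in both libraries. The ratios that follow are late over Ltf-low within each library, and are descriptions, since the rule picks cells along this axis. Of 2295 genes of at least 50 CPM in late or Ltf-low cells of each library, 80 (3.49%) were at least 2-fold higher in late cells in both libraries and 339 (14.8%) at least 2-fold lower. A gene that reached 50 CPM only in the kind of cell where it is high had to differ, and 41 of the 80 and 140 of the 339 reached it in the other kind as well, in both libraries. The median log2 ratio was -0.49 in the knockdown and -0.57 in the control library.

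Of 16 listed secondary granule genes, 13 reached 50 CPM and were counted. Of these 13, 11 were at least 2-fold higher in late cells in both libraries, 7 of them with 50 CPM in Ltf-low cells too, and none was lower. Ltf, which the rule used, is counted in the 11, where it had to be higher, and not in the 7. Ltf had 4110 CPM in knockdown and 2932 CPM in control late cells, against 22.2 and 24.2 CPM in Ltf-low cells. Camp had 14584 and 13946 CPM in late cells, against 1404 and 1513 CPM in Ltf-low cells. Lcn2, which binds bacterial siderophores, had 6585 and 5650 CPM against 496 and 651 CPM. Ngp had 27873 and 24681 CPM against 4071 and 4065 CPM. Chil3, a chitinase-like lectin, had 3411 and 4140 CPM against 704 and 1126 CPM. Camp and Ngp were above 1000 CPM in Ltf-low cells already. Hp (haptoglobin) and Ceacam1 were the 2 members short of 2-fold, with log2 ratios of 0.53 and 0.57 in the knockdown and 0.16 and 0.26 in the control library.

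Of 9 listed genes of the tertiary granules, which neutrophils make later, and of the ficolins, 4 reached 50 CPM. The secondary granule list also had scarce members, and the collagenase gene Mmp8 had 7.78 CPM in knockdown and 22.3 CPM in control late cells, and its UMIs sat in 8 and 17 cells. Of the 4 tertiary granule and ficolin genes, the integrin genes Itgam and Itgb2 were at least 2-fold higher in late than in Ltf-low cells of both libraries, Itgam passing the minimum in late cells alone in the knockdown library. Itgam had 103 and 127 CPM in late cells and 46.2 and 61.4 CPM in Ltf-low cells. Fcnb (ficolin B) had 519 and 431 CPM against 237 and 228 CPM.

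The stefin A genes, mouse inhibitors of cysteine proteases, also marked the late cells. Of 7 tested, counting the stefin B gene Cstb, 5 were at least 2-fold higher in both libraries, 3 of them with 50 CPM in Ltf-low cells too. Stfa2 had 1638 CPM in knockdown and 2376 CPM in control late cells, against 12.04 and 31.3 CPM in Ltf-low cells. Stfa3 had 793 and 1229 CPM against 11.8 and 15.2 CPM. Stfa1 (chr16:36276951-36285373) differed less, at 5345 and 8840 CPM in late cells and 3362 and 3142 CPM in Ltf-low cells. These genes lie in a family of near-identical copies, so the split of reads among them is uncertain.

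S100a8 and S100a9 were used by the rule, and their levels are descriptions. S100a8 took 111583 CPM of knockdown and 118950 CPM of control late cells, and S100a9 74433 and 75484 CPM. In single late cells the S100a8 share ran from 1.99% over a median of 11.8% to 27.1% in the knockdown library, and from 4.53% over 12.3% to 22.5% in the control library. S100a6 had 2530 and 3647 CPM in late cells, against 373 and 756 CPM in Ltf-low cells. The annexin gene Anxa1, which encodes a brake on inflammation, had 590 and 621.1 CPM against 29.0 and 49.6 CPM.

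Most genes of the oxidative burst list were within 2-fold between the stages. Cybb, the catalytic subunit of the NADPH oxidase, had 648 CPM in knockdown and 701 CPM in control late cells, against 123 and 158 CPM in Ltf-low cells. Of 8 genes of this list, Cybb and Mgst1 were at least 2-fold higher in late cells in both libraries. Mgst1 encodes a glutathione transferase and not a subunit of the oxidase. The subunit genes Cyba, Ncf1, Ncf4 and Rac2 had log2 ratios between 0.30 and 0.63.

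Of 14 surface receptors, 6 were at least 2-fold higher in late cells in both libraries, but 1 of them alone reached 50 CPM in Ltf-low cells too. Ly6g had 118 CPM in knockdown and 157 CPM in control late cells, against 5.83 and 9.01 CPM in Ltf-low cells. Ifitm6 had 865 and 697 CPM against 13.1 and 12.5 CPM. The complement receptor gene C5ar1 had 90.3 and 67.9 CPM against 12.2 and 12.5 CPM. The G-CSF receptor gene Csf3r was low throughout, at 19.7 and 18.5 CPM in late cells and 25.5 and 25.1 CPM in Ltf-low cells. Ceacam10 and AA467197 completed the 10 genes highest in late cells, which otherwise were Ltf, Stfa2, Stfa3, Ifitm6, Ly6g, Anxa1, Stfa2l1 and Camp.

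Primary granule genes went the other way, and 9 of 12 tested were at least 2-fold lower in late cells in both libraries, all 9 with 50 CPM in late cells too. Mpo (myeloperoxidase, chr11:87793581-87804413) had 343 CPM in knockdown and 124 CPM in control late cells, against 2024 and 1562 CPM in Ltf-low cells. Ctsg (cathepsin G, chr14:56099881-56102574) had 496 and 163 CPM against 4011 and 3096 CPM. Elane (neutrophil elastase) had 3695 and 2644 CPM against 13123 and 13084 CPM. Lyz2 (lysozyme), which sits in all granule types, was the 1 member higher in late cells, at 2684 and 3260 CPM against 412 and 616 CPM.

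Genes of ribosome making and of folding in the endoplasmic reticulum (ER) were lower in late cells where they could be compared. Of 11 nucleolar genes that reached 50 CPM in either kind of cell, 4 did so in late cells of both libraries, and these were all at least 2-fold lower than in Ltf-low cells. The other 7 passed through Ltf-low cells alone in at least 1 library and had to be lower. Npm1 was at 450 CPM in knockdown and 276 CPM in control late cells, against 1381 and 1157 CPM. Of 13 ER folding genes 12 were at least 2-fold lower, 10 of them with 50 CPM in late cells too, among them the chaperone genes Calr, at 237 and 136 CPM against 1085 and 964 CPM, and Hspa5, at 165 and 99.4 CPM against 529 and 431 CPM. The 10 genes lowest in late cells were Ctsg, Ccnd2, Fkbp11, Mpo, Srgn, Srm, Mcpt8, Fam136a, Calr and Apex1.

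Cell cycle transcripts stayed within 2-fold of Ltf-low cells for most listed genes. None of 24 G2 and M phase and none of 17 S phase genes was 2-fold apart in both libraries, with median log2 ratios of 0.08 and -0.11 for G2 and M phase and of -0.71 and -0.57 for S phase in knockdown and control. Top2a, a topoisomerase of dividing cells, had 231 CPM in knockdown and 218 CPM in control late cells, against 186 and 189 CPM in Ltf-low cells. At 3000 UMIs per cell, Top2a was seen in 42.0% of late cells in each library and in 38.3% of Ltf-low cells in each. The S phase medians were near those over all genes tested (-0.49 and -0.57) and over 78 ribosomal protein genes (-0.60 and -0.52). Of cells thinned to the same depth, 68.8% of knockdown and 64.8% of control late cells held at least 3 UMIs of the S phase list, against 96.1% and 94.3% of Ltf-low cells. Unthinned, the late shares were 78.5% and 80.7%. The cyclin gene Ccnd2 and the kinase gene Cdk6, which drive entry into the cycle, were low, at 24.4 and 14.1 CPM and at 43.1 and 38.0 CPM in late cells. In Ltf-low cells they had 154 and 105 CPM and 182 and 157 CPM. The cell cycle inhibitor gene Cdkn2d was higher, at 248 and 220 CPM in late cells against 105 CPM in Ltf-low cells of both libraries.

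Among transcription factors, Cebpe, which encodes C/EBP epsilon, had 875 CPM in knockdown and 816 CPM in control late cells, against 570 and 561 CPM in Ltf-low cells. Spi1, which encodes PU.1, had 542 and 489 CPM against 461 and 483 CPM. Gfi1, which encodes a transcriptional repressor that acts in granulocyte development, had 34.2 and 17.9 CPM against 115 and 95.4 CPM. Klf2, a factor of cell quiescence and migration, had 98.1 and 123 CPM against 20.1 and 51.6 CPM. Of 13 factors counted, 1 was at least 2-fold higher and 2 lower in late cells of both libraries, and none of these 3 reached 50 CPM on both sides.

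**Figure D2:**
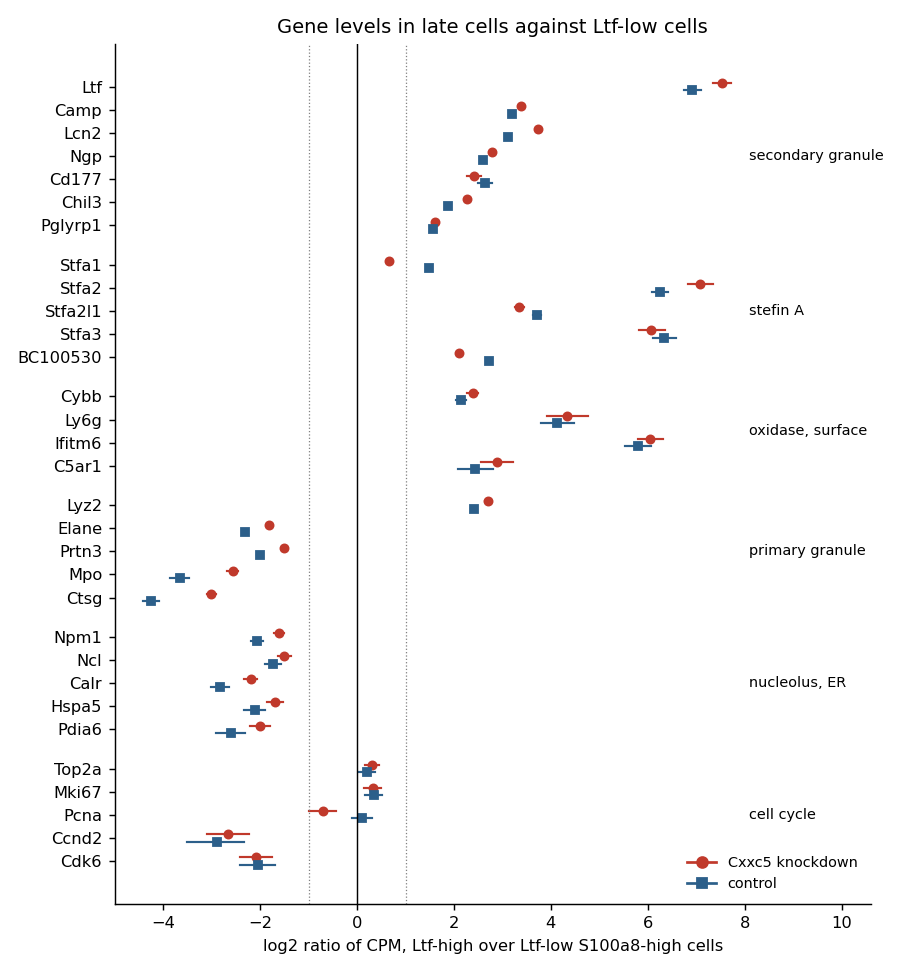
Log2 ratios of levels in late over Ltf-low cells for selected genes, with knockdown (circles) above control (squares), lines as counting intervals and dotted lines at 2-fold. Ltf, Stfa2, Stfa3 and Ifitm6 stand furthest to the right, Ctsg, Mpo and Ccnd2 furthest to the left, and Top2a and Mki67 lie near 0.

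Late cells were not uniform, and their Ltf share ran from the minimum to 2.33% in the knockdown and 1.52% in the control library, with medians of 0.293% and 0.228%. Of the knockdown late cells, 45 (17.2%) had Ltf at 0.05 to 0.1%, 87 (33.3%) at 0.1 to 0.3%, 94 (36.0%) at 0.3 to 1% and 35 (13.4%, 9.52 to 18.2%) over 1%. The control cells numbered 44 (25.0%), 62 (35.2%), 64 (36.4%) and 6 (3.41%, 1.26 to 7.27%). The top range thus rested on 6 control cells. Median depth was lowest there, at 5198 UMIs in knockdown and 4543.5 UMIs in control cells.

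Along these 4 ranges, from low to high Ltf, Ly6g had 23.6, 43.7, 154 and 448 CPM in the knockdown and 30.1, 90.3, 280 and 1418 CPM in the control library. Lcn2 had 2648, 3924, 9186 and 15682 CPM in knockdown and 3612, 4827, 8001 and 13471 CPM in control cells. Both genes were higher in each next range in both libraries. Elane ran in the opposite order, with 7946, 4561, 1171 and 200 CPM in knockdown and 5088, 2623, 619 and 61.7 CPM in control cells. Mpo had 761, 452, 60.8 and 14.6 CPM in knockdown and 254, 109, 27.0 and 61.7 CPM in control cells, the last from 2 UMIs. Stfa1 was lower, and Stfa2 higher, in each next range of both libraries. Top2a had 241, 235, 245 and 156 CPM in knockdown and 254, 207, 203 and 123 CPM in control cells, so Top2a was detected in all 4 ranges of both libraries. The summed G2 and M phase list had 6410 CPM in knockdown and 6227 CPM in control cells of the top range, against 7473 and 7123 CPM in the range below it. The summed S phase list was lower in each next range. It had 2448, 2123, 1546 and 780 CPM in knockdown and 2205, 1727, 1442 and 308 CPM in control cells, the last from 6 cells.

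**Figure D3:**
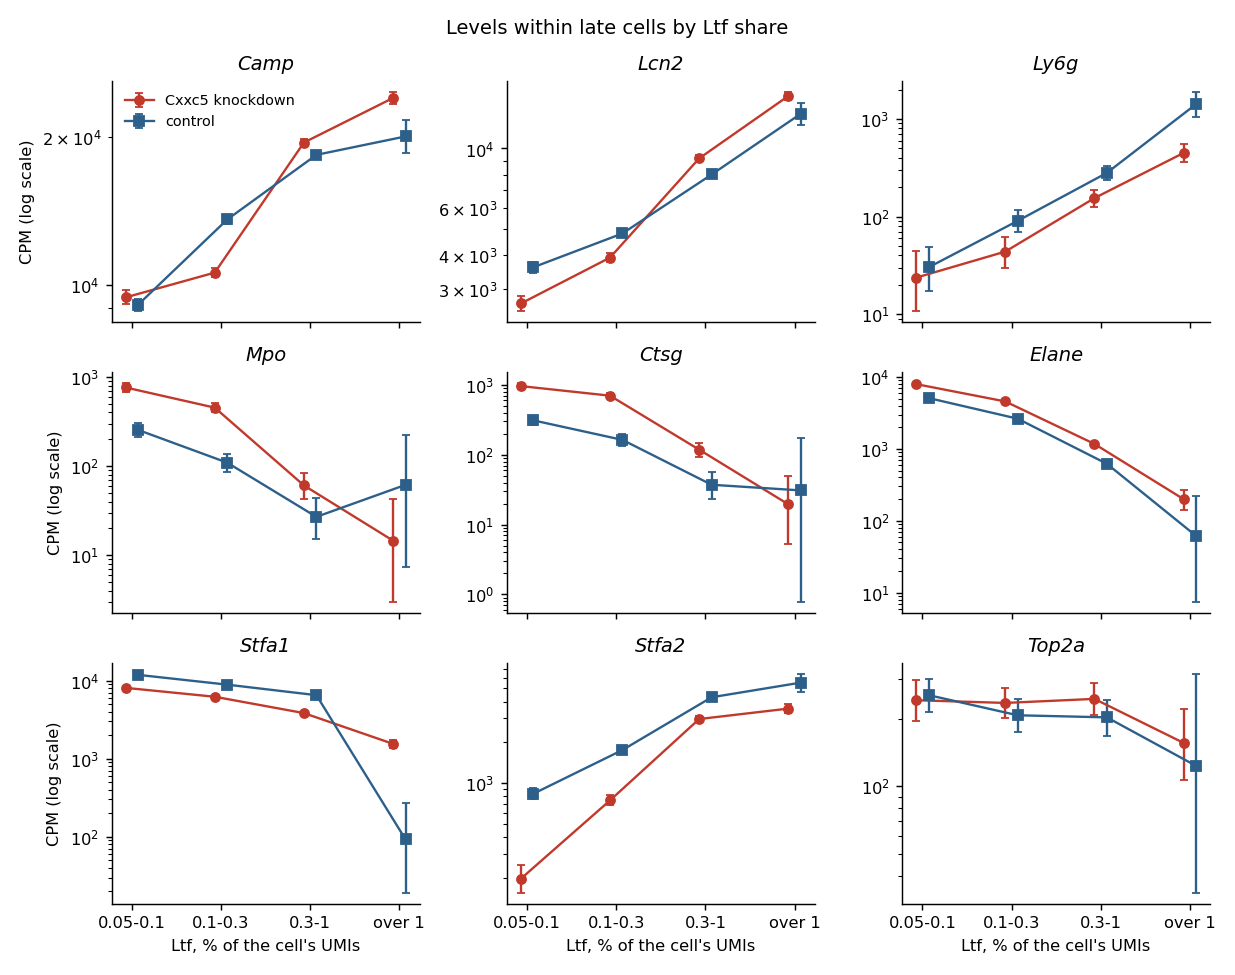
Levels of 9 genes (CPM, log scale) within late cells in 4 ranges of their Ltf share, knockdown as circles and control as squares, with exact Poisson intervals. Camp, Lcn2, Ly6g and Stfa2 climb and Elane and Stfa1 decline with Ltf in both libraries, Mpo and Ctsg are higher in knockdown cells of the first 3 ranges, and the last control point stands for 6 cells.

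The comparison the design is built on asks which genes differ between knockdown and control late cells. Of 1909 genes of at least 50 CPM in late cells of a library, 108 (5.66%) were at least 1.5-fold higher in knockdown cells and 41 (2.15%) at least 1.5-fold lower. The median log2 ratio over these genes was 0.12, to which each list below is set. A gene that reached 50 CPM only in the library where it is high had to differ by some amount, and 43 of the 108 and 20 of the 41 reached it in both libraries. Of 45 named genes past 1.5-fold, 17 stayed so under all 13 alternatives, of which those with another S100 minimum chose the same cells. Divided by that median, 60 genes were higher and 61 lower. In Ltf-low cells, which are more numerous, 8 of 2413 genes (0.332%) were higher and 24 (0.995%) lower, with a median of 0.04. Counting error is larger in late cells, and the excess of calls over Ltf-low cells was not tested. If the interval end nearest to no change had to reach 1.5-fold, 18 genes were higher and 6 lower in late cells.

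Primary granule genes stood higher in knockdown late cells. Of 12 tested, 5 were at least 1.5-fold higher, all with 50 CPM in both libraries, and none lower. Over all genes tested, 5.66% were higher. The list's median log2 ratio was 0.53, against 0.12 over all genes. Ctsg had 496 CPM in knockdown and 163 CPM in control late cells, a log2 ratio of 1.61 (1.42 to 1.80). Mpo had 343 and 124 CPM, a ratio of 1.47 (1.25 to 1.69). Prtn3 (proteinase 3) had 2414 and 1495 CPM (0.69), Prss57 126 and 77.1 CPM (0.71) and Nkg7, which is also expressed in killer lymphocytes, 281 and 183 CPM (0.62). Elane (0.48), Ms4a3 (0.56) and Srgn (0.50) stayed under 1.5-fold, and Lyz2 (-0.28) was the 1 member below 0. In Ltf-low cells the same 12 genes had a median of 0.04, with none past 1.5-fold, and Ctsg and Mpo at 0.37 each.

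Most Mpo and Ctsg UMIs of late cells lay at the low end of Ltf. In the 3 lower ranges of Ltf, Ctsg had 963, 702 and 118 CPM in knockdown and 311, 163 and 37.1 CPM in control cells. In the top range the Ctsg counts were 4 UMIs in knockdown and 1 UMI in control cells. With the control's mix of Ltf ranges, the median of the primary granule list was 0.72. Mpo was seen in 46.0% of knockdown and 34.1% of control late cells, and in 34.4% and 16.5% after thinning, and with the 10 Mpo-richest cells of each library left out the log2 ratio of Mpo was 1.81. The list's median moved with the rule, to 0.34 at an Ltf minimum of 0.02%, and to 0.20 with Camp and to 0.057 with Lcn2, each in place of Ltf. With Lcn2, Mpo stood at 0.61, and the other 4 genes fell short of 1.5-fold, at 0.50 for Ctsg, 0.28 for Prtn3, 0.19 for Nkg7 and 0.043 for Prss57. Without the cells of highest doublet score (15 knockdown and 2 control late cells) Mpo stood at 0.98 and Ctsg at 1.32. The mast cell and basophil protease-rich cells held Mpo at 211 and 214 CPM, with all but 2 of 40 knockdown UMIs in 10 cells. They held Ctsg at 980 and 1130 CPM, above its 496 and 163 CPM in late cells. Outside their 10 Ctsg-richest cells lay 30 knockdown and 23 control UMIs of Ctsg. The part of doublets and of free RNA in the result was not otherwise tested.

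Secondary granule genes differed little between knockdown and control late cells. Of 13 tested, Orm1 was at least 1.5-fold higher and none was lower, with a median log2 ratio of 0.03. Over all genes tested, 5.66% were higher and 2.15% lower. Orm1, an acute phase carrier protein, had 146 CPM in knockdown and 72.2 CPM in control cells, a ratio of 1.02 (0.72 to 1.33), and 50.1 and 32.9 CPM in Ltf-low cells. Ltf had a ratio of 0.49 and Chil1 of 0.49, Lcn2 of 0.22, Ngp of 0.18 and Camp of 0.06. Padi4 (-0.38), Chil3 (-0.28) and Wfdc21 (-0.17) lay below 0. Ltf chose the cells, so its ratio is given as a description only. It is nevertheless counted in the 13 and in their median, with 7 of the 13 above 0, Ltf among them, and 6 below. Ly6g had a ratio of -0.42 (-0.68 to -0.16), and was lower in knockdown cells in each of the 4 ranges of Ltf.

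Stefin A genes stood lower. Of 7 tested, 3 were at least 1.5-fold lower in knockdown late cells, against 2.15% of all genes tested, and none higher. All 7 lay below 0, with a median of -0.54. Stfa1 had 5345 CPM in knockdown and 8840 CPM in control cells (log2 ratio -0.73, -0.76 to -0.69). Stfa3 (-0.63) and Stfa2l1 (-0.63) were the others past 1.5-fold, and Stfa2 stood at -0.54. BC100530 had 21065 and 28913 CPM (-0.46). In Ltf-low cells the 5 members tested had a median of -0.03, with Stfa1 at 0.10 and BC100530 at 0.17. Stfa1 was lower in knockdown cells in the 3 lower ranges of Ltf, at 8095, 6226 and 3843 CPM in knockdown and 11884, 8899 and 6524 CPM in control cells. In the top range it had 1550 CPM in knockdown cells and 92.5 CPM, from 3 UMIs, in the 6 control cells. With Lcn2 in place of Ltf all 3 calls were lost, at -0.17 for Stfa1, -0.30 for Stfa2l1 and -0.33 for Stfa3.

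Few inflammatory genes were measurable. Of the 3 counted, Ccl6 and Il1rn were at least 1.5-fold lower in knockdown late cells, against 2.15% of all genes tested. Il1rn reached 50 CPM in control cells alone. Il1rn, which encodes the interleukin-1 receptor antagonist, had 17.1 CPM in knockdown and 58.1 CPM in control cells (log2 ratio -1.76, -2.37 to -1.19), and a UMI in 10.3% and 36.4% of cells. The chemokine gene Ccl6 had 194 and 388 CPM (-1.004, -1.19 to -0.82). Nfkbia, an inhibitor of NF-kappa-B, stood at -0.09. The ratios were of like size in Ltf-low cells, at -1.70 for Il1rn and -0.92 for Ccl6. Il1b had a UMI in 3 knockdown and 7 control late cells and was not tested.

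Some nucleolar and ER folding genes stood higher in knockdown late cells, and the list medians were 0.60 and 0.35. Of 6 nucleolar genes tested 3 were at least 1.5-fold higher, of which Npm1 alone reached 50 CPM in both libraries: Npm1 (450 CPM in knockdown and 276 CPM in control cells, log2 ratio 0.71), Fbl (0.70) and Nop56 (0.83). Of 12 ER folding genes 4 were, Pdia6 (100 and 54.8 CPM, 0.87), Calr (0.80), Hspa5 (0.73) and Hsp90b1 (0.70). Among all genes tested, 5.66% were called higher and 2.15% lower. None of either list was 1.5-fold lower, and 2 ER folding genes lay below 0. All 7 calls were lost under an alternative. With Lcn2 in place of Ltf, Npm1 stood at 0.16, Nop56 at 0.42, Pdia6 at 0.33, Calr at 0.19, Hspa5 at 0.40 and Hsp90b1 at 0.32, and in thinned cells Fbl stood at 0.0059. In Ltf-low cells the medians were 0.24 and 0.21, with none past 1.5-fold. All of these genes are low in late compared with Ltf-low cells in both libraries, as are Mpo and Ctsg. Without the cells of highest doublet score Calr stood at 0.30.

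Energy genes were mostly within 1.5-fold, as were 92.2% of all genes tested in late cells. Of 10 glycolysis genes 2 were higher in knockdown late cells, the isomerase gene Tpi1 (307 and 191 CPM, log2 ratio 0.68) and the lactate transporter gene Slc16a3 (0.67, with 50 CPM in knockdown cells alone), and the median was 0.25. With Lcn2 in place of Ltf Tpi1 stood at 0.41, and Slc16a3 at 0.36 in thinned cells. Of 15 respiratory chain genes the 1 past 1.5-fold was Cycs (cytochrome c), at 77.8 CPM in knockdown and 180 CPM in control cells (-1.21), whose count is uncertain because the genome holds processed copies of it. Its ratio in Ltf-low cells was -1.19. None of the 8 genes of the NADPH oxidase list, Mgst1 included, passed 1.5-fold (median -0.02). Nor did any of 10 S100 and annexin genes (median -0.10), where S100a6 was lowest at -0.53. S100a8 and S100a9, which the rule used, are counted in these 10 and in their median. Of 22 actin cytoskeleton genes, Tmsb10, a thymosin that binds actin, was lower (-0.62), as was Myl10, described below. None passed 1.5-fold among 4 tertiary granule and ficolin, 10 lysosome, 5 iron handling, 5 nuclear lamina, 5 survival, 4 cell cycle exit or 2 interferon-induced genes.

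The cell cycle lists held 1 call each, against 5.66% of all genes called higher and 2.15% lower. Of 23 G2 and M phase genes Aurka, a mitotic kinase, was higher in knockdown late cells, at 75.2 CPM against 37.5 CPM in control cells (log2 ratio 1.01), and the median was 0.18. Of 12 S phase genes Pcna, the sliding clamp of DNA replication, was lower, at 64.3 CPM in knockdown and 118 CPM in control cells (-0.87, -1.20 to -0.55), and the median was 0.15. Aurka reached 50 CPM in knockdown cells alone. Pcna stood at -0.06 in Ltf-low cells, and at -0.33 in late cells chosen by Lcn2 in place of Ltf. Of 12 transcription factors, Junb was higher (50.8 and 30.4 CPM, 0.74) and Cebpg lower (35.8 and 60.3 CPM, -0.75), each reaching 50 CPM in 1 library alone. Junb stood at 0.18 with Camp in place of Ltf and Cebpg at -0.11 in thinned cells. Cebpe stood at 0.10 and Spi1 at 0.15. Of 14 surface receptors, Csf2ra, a subunit of the receptor for the GM-CSF in the medium, was higher, at 93.9 and 57.6 CPM (0.71), and stood at 0.21 with Camp in place of Ltf.

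**Figure D4:**
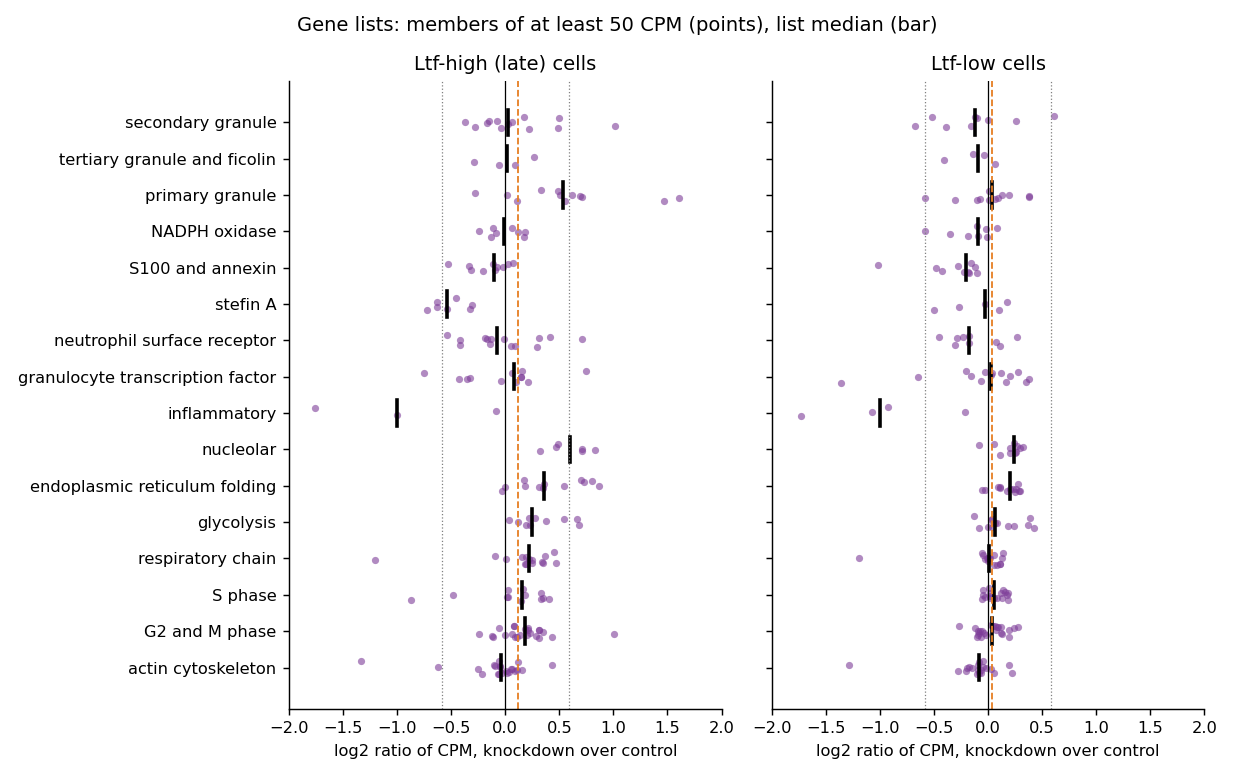
Log2 ratios of knockdown over control in late cells (left) and Ltf-low cells (right) for 16 gene lists, each point a gene of at least 50 CPM, bars the list medians, the orange dashed line the median of all genes and dotted lines 1.5-fold. In late cells the primary granule (0.53) and nucleolar (0.60) medians lie to the right and the stefin A median (-0.54) to the left.

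By size of ratio alone, Nsmce2, a SUMO ligase of the SMC5/6 complex, was highest in knockdown late cells, at 50.3 CPM in knockdown and 15.7 CPM in control cells (log2 ratio 1.68, 1.06 to 2.33). It was also higher in Ltf-low cells (1.06). Ctsg, Mpo and the mitochondrial channel gene Vdac1 (1.40) came next. Ppa1, Hspd1, Ptges3, Polr2m, Rrbp1, Smim11 and Pold4 followed, between 1.02 and 1.37. The lowest after Il1rn were the myosin light chain gene Myl10, at 104 and 262 CPM (-1.33), Cycs, the processed pseudogene Gm9493 (-1.08) and the ubiquitin ligase gene Rnf5 (-1.07). Ccl6, Klhdc4, Pcna, E2f1, Sepp1, Ube2r2 and Gclm made up the rest, between -1.004 and -0.78. Myl10 stood at -1.28 in Ltf-low cells. Of the genes named in this ranking, E2f1 and Pcna had intervals that included 0 in Ltf-low cells.

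**Figure D5:**
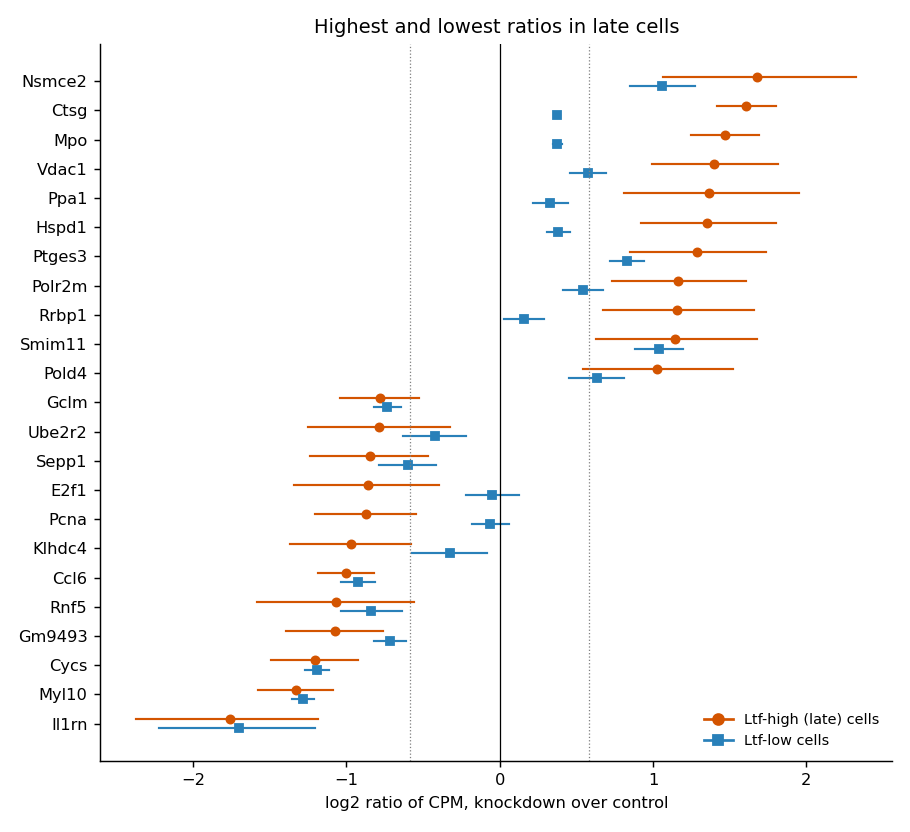
Log2 ratios of knockdown over control for 11 of the 12 highest and for the 12 lowest genes of late cells, in late cells (circles, upper) and Ltf-low cells (squares, lower), lines as counting intervals and dotted lines at 1.5-fold. Nsmce2, Myl10, Cycs and Il1rn lie far from 0 in both kinds of cells, while Ctsg and Mpo lie further out in late cells.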

How the data were processed

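The authors deposited UMI counts per gene and cell barcode for each library, from 10x Genomics 3' version 2 libraries per the labels' protocols. The submitters' processing notes name Cell Ranger 2.1.1 and the mm10 build. Filters of the authors on barcodes are not given in the sources used here. All 28692 listed genes were used. Where 1 symbol had several IDs, the most abundant ID was taken. Gene coordinates are GENCODE annotations on GRCm38 (mm10), and promoter sequences RefSeq on GRCm38.p6.

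Levels are UMIs summed over cells of a class per 1e6 UMIs of that class (CPM). Ratios carry exact intervals from the split of UMIs, levels exact Poisson and shares exact Clopper-Pearson intervals, all at 95% and for counting error only. Where 0 cells held a UMI, the limit is 3 cells over the number of cells. With 1 library per group no test was run. Calls are 1.5-fold (knockdown over control) or 2-fold in both libraries (late over Ltf-low). The late cells and the gene lists were chosen with earlier results of these data known. Named genes are Cxxc5, the rule and marker genes, the 12 highest and 12 lowest knockdown ratios, the 10 highest and 10 lowest late ratios, and list members described by role, of which a few genes are not reported here. Scrublet (scanpy 1.11.5) marked 6 knockdown (0.0999%) and 1 control cell, and these calls were not used. Whether its scores pick out doublets in these libraries was not tested. Doublets were kept, and an alternative left out the highest scores at 0.8% per 1000 cells, 288 knockdown and 68 control cells. Scripts were checked on simulated data with known folds. Python 3.11.15, numpy 2.4.6, scipy 1.17.1 and pandas 2.3.3 were used. Alternatives changed the cell filter, the rule, doublets, weighting, the CPM minimum and scaling.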

Additional observations from a re-analysis of the deposited data

How the results depend on the processing

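The late share was lower in the knockdown library under all 10 alternative filters and rules, with log2 ratios between -0.62 and -0.33. The S100 minimums of 0.5% and 3% gave the same cells as the main rule. The shares themselves followed the second marker. They were 5.21% in knockdown and 7.25% in control cells at an Ltf minimum of 0.02%, 2.78% and 3.50% at 0.2%, 8.99% and 12.6% with Camp in place of Ltf, and 10.1% and 15.5% with Lcn2. Against 108 higher and 41 lower genes, 32 and 20 were counted with Camp, 24 and 22 with Lcn2, 241 and 117 in thinned cells, 332 and 144 from 20 CPM and 36 and 16 from 100 CPM. On the interval end nearest 0 they were 18 and 6. Higher genes numbered 71 without the highest doublet scores and 60 after scaling by the median ratio, and lower genes 62 with cells weighted equally. The secondary granule median, which includes Ltf, was 0.20 with Lcn2 and lay between -0.08 and 0.13 under the other 13 alternatives. The primary granule median was 0.34 at an Ltf minimum of 0.02%, 0.20 with Camp, 0.057 with Lcn2 and 0.72 with the control's mix of Ltf ranges. Of 45 named genes past 1.5-fold, none took the opposite sign under 13 alternatives, and 17 stayed past 1.5-fold in all. Those 13 include the S100 minimums, which repeat the main values, and all of them reuse the same libraries. The 45 genes were taken because their main ratio was past 1.5-fold, so a kept sign is not a separate check. The causes were not tested. No paired analysis was possible because each group was 1 pooled library. Depth limits genes under about 50 CPM, Cxxc5 in late cells, and the top Ltf range of 6 control cells.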
